A study of Mus musculus with 6 samples.

Results

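Of 45296 cytosines that were at least 90% methylated in round spermatids, 2142 (4.73%) were kept by a single line of haploid embryonic stem cells and lost by the other 4. A cytosine was counted as kept by one line only if it lay on chromosomes 1 to 19, was covered by 10 reads or more in each of the 6 libraries, and was at 50% or more in exactly 1 line and under 10% in each of the other 4. The level is the number of methylated reads over all reads at that cytosine. These positions were chosen from 227992 cytosines with enough reads, of which 19.9% met the round spermatid level. The levels chose the positions, so the levels themselves are given as description and are not tested.

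The lines are androgenetic haploid embryonic stem cells (AG-haESC) of C57BL/6 background, which carry a single chromosome set from the father. The 2 wild-type (WT) lines were titled AGH-OG3 (WT replicate 1, passage 31) and AGH-2 (WT replicate 2, passage 18). The 3 double knockout (DKO) lines are labelled as lacking both the H19 DMR and the IG-DMR, which are imprinting control elements, and were at passage 32, 31 and 29 as DKO replicates 1, 2 and 3. DKO replicate 2 carries the name OG3 and DKO replicate 3 the name AGH-2 in its title. ES medium with 2i, which blocks a pair of kinases, and feeder cells were used to grow all 5 lines, and the part of feeder DNA in the reads was not tested. Round spermatids from testis, which are haploid cells on the way to sperm, gave 1 library and served as the control. DNA methylation was read by reduced representation bisulfite sequencing (RRBS), which cuts at CCGG with MspI and sequences the ends of short fragments. Read counts summed over all cytosines ranged from 197728785 to 293920118 per library, where a read counts once for each cytosine it covers. Each line is 1 library, and nothing says that the lines came from separate embryos. Cell identity could not be read from expression, since only methylation was measured.

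In mammals methylated cytosines stand almost always before a guanine (CpG), and the pattern is copied to the new strand at each division by Dnmt1, which Uhrf1 guides to sites that carry the mark on the old strand only. The sperm genome is highly methylated and loses much of this mark in the early embryo, and ES cells in 2i are known for low methylation. Each line here descends from a paternal genome, and a cytosine methylated in round spermatids could be high or low in each line. The words kept and lost name only the level measured in the line. What happened to the mark between spermatid and line was not measured.

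Sequence was at hand only for promoter windows, which held few of these positions. Of the 2142 cytosines, 15 lay in the windows of 250 bases before to 50 after a gene start that RefSeq (GRCm38.p6) gives, among 272 spermatid-methylated cytosines there. For each line the text shows the cytosine before the start of a named gene whose level had the highest lower 95% bound (Wilson), a choice made after the values were seen. Windows are cut before the gene start, each reads 5′ to 3′ on the strand of the gene, and capitals mark the CpG.

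A1cf (WT replicate 1, chr19:31868563-31868622, plus strand): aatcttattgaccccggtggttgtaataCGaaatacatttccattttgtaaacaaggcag
Rgs3 (WT replicate 2, chr4:62619551-62619612, plus strand): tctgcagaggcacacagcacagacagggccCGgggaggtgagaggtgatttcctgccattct
Trim58 (DKO replicate 1, chr11:58640328-58640389, plus strand): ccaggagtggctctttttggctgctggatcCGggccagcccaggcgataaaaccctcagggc
Dok3 (DKO replicate 2, chr13:55528615-55528676, minus strand): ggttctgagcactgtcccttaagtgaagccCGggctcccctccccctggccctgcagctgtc
Proz (DKO replicate 3, chr8:13060827-13060888, plus strand): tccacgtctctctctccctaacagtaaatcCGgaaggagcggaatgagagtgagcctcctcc

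In 4 of the 5 sequences, all but that of A1cf, the capital CG is the centre of CCGG, the site that MspI cuts. Of the 15 cytosines in promoter windows 12 (80%) stood in CCGG, against 116 of 269 (43.1%) of the spermatid-methylated cytosines there whose neighbouring bases also lay in a window. The motif CCGG reads the same on both strands, and 53.5% of the 31365 RefSeq promoter windows hold it. This difference was noticed in the data, rests on 15 positions and was not tested. All 112868 cytosine positions that could be checked against the promoter sequences were CpG.

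At these promoters the keeping line stood far from the others, which were at or near 0%. The cytosine 107 bp before the start of Trim58, which encodes a ubiquitin ligase, was at 97.9% of 47 reads in DKO replicate 1. The other lines were at 0% from 94 to 230 reads, and round spermatids at 100% of 34 reads. At Rgs3, a regulator of G protein signalling, WT replicate 2 was at 100% of 25 reads and DKO replicate 1 at 0.575% of 348 reads, while the other lines were at 0%. At Proz, which encodes protein Z, a plasma protein, DKO replicate 3 was at 89.5% of 219 reads and WT replicate 2 at 0.487% of 616, with 0% in the remaining lines. Dok3, which encodes an adaptor protein of immune cells, was at 85% of only 20 reads in DKO replicate 2 and at 2.06% of 97 reads in DKO replicate 1. At A1cf, a cofactor of RNA editing, WT replicate 1 was at 59.8% of 286 reads and all other lines at 0%.

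WT replicate 1 held the most cytosines kept by one line only, and WT replicate 2 the fewest. The counts were 822 in WT replicate 1 (1.81% of spermatid-methylated cytosines), 509 in DKO replicate 2 (1.12%), 345 in DKO replicate 3 (0.762%), 290 in DKO replicate 1 (0.64%) and 176 in WT replicate 2 (0.389%). Counting error was smaller than most of these steps, but the 95% Wilson intervals of DKO replicates 3 and 1, 0.686% to 0.846% and 0.571% to 0.718%, overlapped. Intervals here treat reads and positions as independent and cover counting error only. WT replicate 1 led on all 19 chromosomes, and the share of all lines together ranged from 4.24% on chromosome 12 to 5.43% on chromosome 7.

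The order of the counts was nearly that of the methylation each line had kept elsewhere. At the spermatid-methylated cytosines outside the set, the mean level was 26.7% in WT replicate 1, 24.7% in DKO replicate 2, 17.9% in DKO replicate 1, 17.5% in DKO replicate 3 and 14.5% in WT replicate 2. Only DKO replicates 1 and 3 changed places between these orders. With 5 lines no correlation is given, and the rule itself ties the count to how often a line kept a cytosine. Of the cytosines that WT replicate 1 kept at 50% or more, 8.46% were kept by it alone, against 4.46% in WT replicate 2 and 5.15% to 6.30% in the DKO lines.

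Passage gave no single order. The line at passage 18 had the lowest count, and the lines at passage 31 had the highest counts, but the line at passage 32 had the second lowest. WT and DKO lines overlapped. The WT lines averaged 1.10% ± 1.01 (SD, n = 2). The DKO lines averaged 0.842% ± 0.252 (SD, n = 3). DKO minus WT was -0.260 percentage points, in size below the SD of the WT lines and slightly above that of the DKO lines. A two-sided exact permutation test of this difference gave p = 0.8. With 10 splits of the lines this test cannot go below 0.1. Leaving out a line applied the rule anew to the remaining lines, and so changed the set of cytosines. The difference between DKO and WT lines then turned to 1.06 points without WT replicate 1. It was -0.918 without DKO replicate 2 and -1.29 without WT replicate 2. The lines that share a name differed in opposite directions: DKO replicate 2 minus WT replicate 1 (OG3) was -0.691 points, and DKO replicate 3 minus WT replicate 2 (AGH-2) was 0.373 points.

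**Figure D1:**
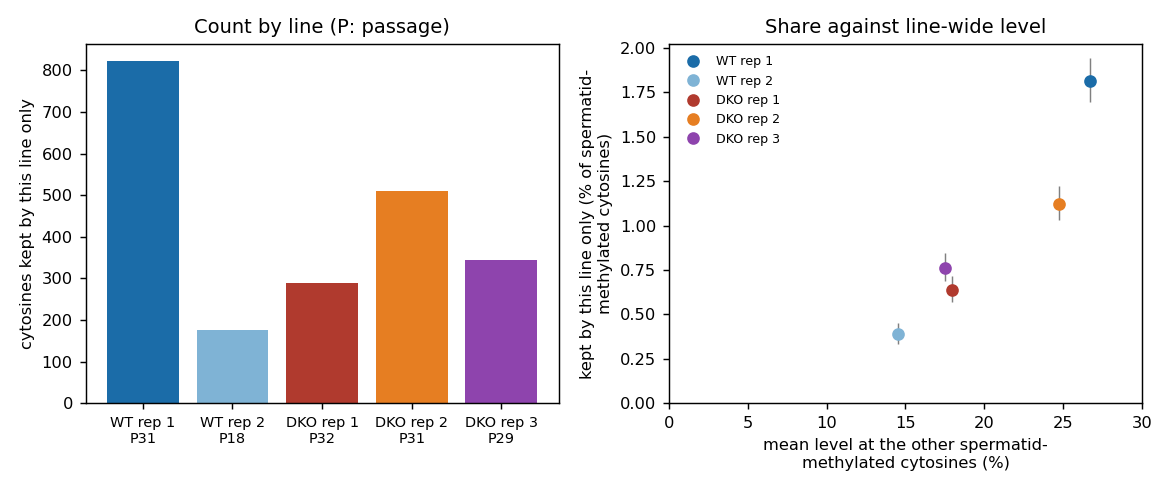
The left plot shows the number of spermatid-methylated cytosines kept by each line only, with its passage (P). The right plot sets each line's share (with Wilson 95% intervals) against its mean level at the other spermatid-methylated cytosines, and runs from WT replicate 2 (0.389% at 14.5%) to WT replicate 1 (1.81% at 26.7%).

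Being kept by a single line was common, but a clean loss in all the others was not. Of the 45296 cytosines, 24605 (54.3%) were at 50% or more in no line, 12068 (26.6%) in exactly 1 line, 5548 (12.2%) in 2 lines and 168 (0.371%) in all 5. Of the 12068, the 2142 described here (17.7%) were under 10% in each of the other 4 lines. A further 6020 spermatid-methylated cytosines were under 10% in all 5 lines.

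At 1061 cytosines 2 lines were at 50% or more and the other 3 under 10%. The pair of WT replicate 1 and DKO replicate 2, both named OG3, gave 289 of them, which is 44.9% of the 644 such cytosines of WT replicate 1 and 50% of the 578 of DKO replicate 2. WT replicate 2 and DKO replicate 3, both named AGH-2, gave 40, the fewest of the 10 pairs, or 15.6% of 256 and 12.8% of 312. The lines of the first pair also held the 2 highest counts of cytosines kept by one line only. A shared name therefore did not go with a high count in both pairs.

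In the keeping line the levels gathered at both ends of the range that the rule allows. Over all 2142 cytosines the median level was 70.1%, with quartiles of 58.5% and 94.1%. Levels of 50% to 60% were found at 617 (28.8%), 60% to 90% at 927 and 90% or more at 598 (27.9%), of which 334 were at exactly 100%. DKO replicate 3 had the highest median (76.9%) and the largest share at 90% or more (37.4%), and DKO replicate 2 the smallest such share (20.8%). The other 3 lines had 27.7% to 29.7% at 90% or more. In the 4 other lines no methylated read at all was seen at 849 cytosines (39.6%). Round spermatids were at exactly 100% at 72.5% of the set and 71.9% of all spermatid-methylated cytosines.

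**Figure D2:**
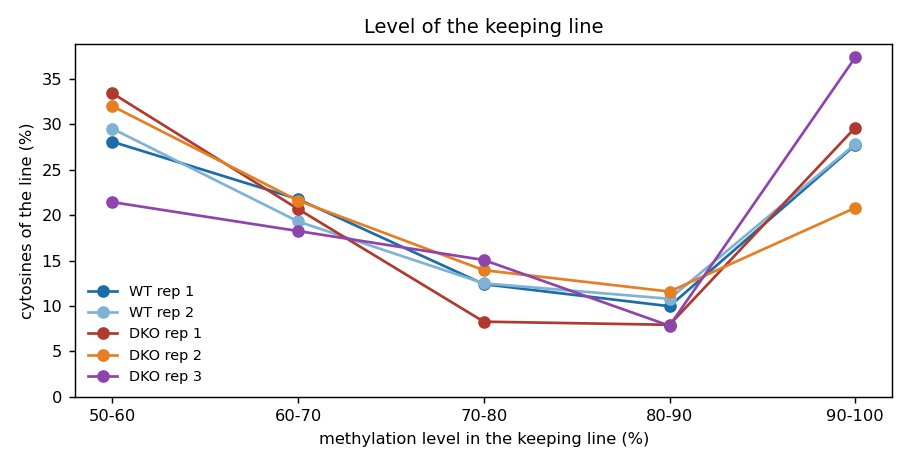
For each line the points give the share of its cytosines in classes of the methylation level in that line (%). All 5 lines dip between 80% and 90% and rise again at 90% to 100%, where DKO replicate 3 is highest at 37.4% and DKO replicate 2 lowest at 20.8%.

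The edges of the rule were densely filled. With the other 4 lines under 10%, 338 cytosines had the keeping line between 50% and 55% and 425 had their highest line between 45% and 50%, just outside. The second highest line lay between 8% and 10% at 152 members and between 10% and 12% at 176 positions just outside. Few lay near the edge in round spermatids, with 7 members between 90% and 92% and 5 positions between 88% and 90%.

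The share of cytosines kept by one line only fell with read depth. Where the lowest of the 6 libraries had 10 to 19 reads, 529 of 6956 spermatid-methylated cytosines (7.60%, Wilson 95% interval 7.01% to 8.25%) were kept by one line only. The share was 6.07% at 20 to 49 reads, 4.83% at 50 to 99, 3.78% at 100 to 199 and 2.58% at 200 to 499. At 500 or more reads it was 24 of 2373 (1.01%, 0.681% to 1.5%). Over the same classes the mean level of the lines went only from 20.5% to 18.2%, while the share of cytosines at 50% or more in a line went from 17.2% to 8.40% and the share under 10% from 57.6% to 45.6%. WT replicate 1 had the largest share and WT replicate 2 the smallest in each class. The cause of this dependence on depth was not tested.

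**Figure D3:**
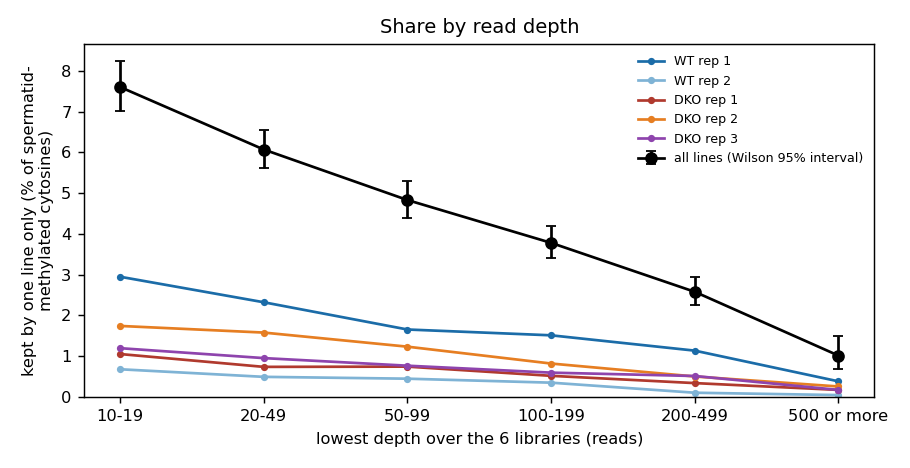
The x axis gives classes of the lowest depth over the 6 libraries and the y axis the share of spermatid-methylated cytosines kept by one line only, for all lines (black, Wilson 95% intervals) and for each line. The black line falls from 7.60% at 10 to 19 reads to 1.01% at 500 or more.

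Members were also read less deeply than other spermatid-methylated cytosines. The median depth of the keeping line at its own members was 193, 131, 204.5, 148 and 193 reads in WT replicates 1 and 2 and DKO replicates 1, 2 and 3, where all spermatid-methylated cytosines had medians of 282, 276, 295, 253 and 244. Set against the other lines at the same cytosines, each scaled to its library, the keeping line was deeper by 0.17 ± 0.071 on the log2 scale (SD, n = 5), in 5 of 5 lines (two-sided exact sign-flip permutation test, p = 0.063, the smallest that 5 lines allow). With at least 50 reads in every library, this was 0.067, positive in 4 of 5 lines (exact p = 0.125).

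Members lay in the same kinds of place as other spermatid-methylated cytosines. Gene bodies away from the ends held 1353 (63.2%), sequence outside genes 570 (26.6%) and the 1 kb around gene ends 219 (10.2%), against 63.3%, 27.3% and 9.41% of all spermatid-methylated cytosines. Within these classes 4.72%, 4.60% and 5.14% were kept by one line only, and the Wilson intervals overlapped. Measured cytosines were somewhat sparser around members, with a mean of 1.90 within 500 bp against 2.18, and 28.1% of members had none, against 20.4%.

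Most members stood alone, and pairs within 50 bp mostly shared their line. Members of one line that lay at most 500 bp apart were joined into blocks. Of 2039 blocks, 1946 were single cytosines, 84 held 2 members, 8 held 3 and 1 held 4, so 196 members (9.15%) were in blocks of 2 or more. Of the 93 blocks of 2 or more, 88 spanned at most 51 bp, and the median span was 20 bp. Many members could not be tested for agreement, since 701 (32.7%) had no other spermatid-methylated cytosine within 500 bp that was measured in all libraries.

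Pairs of members 2 to 50 bp apart mostly belonged to the same line. Of 147 such pairs 109 (74.1%, Wilson 95% interval 66.5% to 80.5%) were of 1 line and 38 of different lines. Of 135639 pairs on the same chromosome more than 5000 bp apart, 25.1% were of 1 line. At 51 to 500 bp it was 5 of 23 (21.7%, 9.66% to 41.9%) and beyond 1000 and up to 5000 bp 3 of 23 (13.0%, 4.54% to 32.1%). Beyond 50 bp the interval thus held the value of distant pairs. Members close to each other can lie on the same reads, so these pairs are not independent.

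Neighbours that the rule did not pick were also higher in the keeping line within 50 bp. Neighbours this close can lie on the same reads as the member, whose levels the rule used. Their values are therefore not independent of the rule, and the test cannot separate the 2. The test was planned for all neighbours within 500 bp, and its split at 50 bp was chosen after the values were seen. At spermatid-methylated cytosines outside the set that lay 2 to 50 bp from a member, the keeping line was at a mean of 31.1% and the other lines at 14.8%, over 1799 neighbours. Averaged over members and then over the 5 lines, the keeping line was 13.9 ± 5.63 percentage points higher (SD, n = 5), in 5 of 5 lines (two-sided exact sign-flip permutation test, p = 0.063, the smallest possible). The values were 21.4 points in WT replicate 1, 6.92 in WT replicate 2, and 9.94, 15.3 and 15.9 in DKO replicates 1, 2 and 3. At 51 to 500 bp the mean was 0.666 ± 5.73 points (SD, n = 5), positive in 3 of 5 lines (exact p = 0.75). The value was larger at 2 to 50 bp than at 51 to 500 bp in 5 of 5 lines, and the difference between the distances was not tested. Over the whole 500 bp, as planned, it was 9.25 ± 6.09 points (SD, n = 5), positive in 5 of 5 lines (exact p = 0.063), with only 0.941 points in WT replicate 2. It was positive in 4 of 5 lines (exact p = 0.125) with a minimum of 5 reads, and likewise with the keeping line at 40% or more, or at 75% or more.

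Lines differ in their general level, which enters these differences line by line and cancels in the mean over lines. With each line's own general difference removed, an adjustment chosen after the data were seen, the 5 values at 2 to 50 bp were between 9.91 points (DKO replicate 2) and 19.3 points (DKO replicate 3). At 51 to 500 bp they lay between -2.28 (DKO replicate 2) and 4.11 points (DKO replicate 1).

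**Figure D4:**
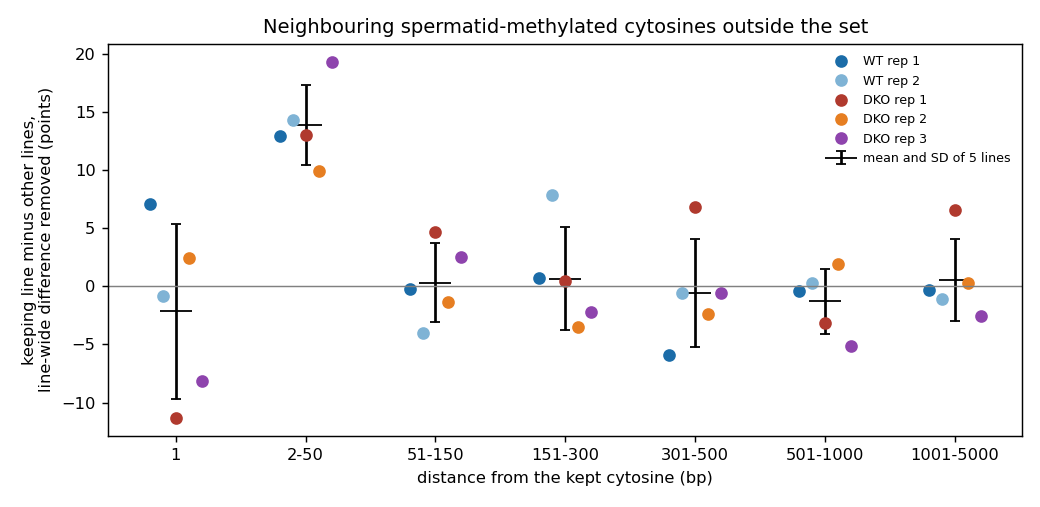
The x axis gives the distance from a kept cytosine and the y axis the level of the keeping line minus the mean of the other lines at neighbouring spermatid-methylated cytosines outside the set, after removal of the line-wide difference (percentage points). Each point is a line and bars give mean and SD of 5 lines. Points lie between 9.91 and 19.3 at 2 to 50 bp and on both sides of 0 in the other classes.

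Cytosines that were too thinly read in some library for the rule gave a further look. They had at least 10 reads in round spermatids, in the keeping line and in at least 2 other lines. Reads were thus always required in the keeping line but not in every other line. Those close to a member can also share its reads, so they are not independent of the rule. Within 500 bp, as planned, the keeping line was 13.7 ± 7.71 points above the other lines at 701 such neighbours (SD, n = 5), in 5 of 5 lines (exact sign-flip permutation test, p = 0.063). With the split at 50 bp that was chosen afterwards, among 314 spermatid-methylated neighbours of this kind 2 to 50 bp away, the keeping line was 24.8 ± 8.16 points above the other lines (SD, n = 5), in 5 of 5 lines (exact sign-flip permutation test, p = 0.063). Among 379 such neighbours 51 to 500 bp away the mean was -0.240 ± 7.39 points (SD, n = 5), positive in 2 of 5 lines (exact p = 0.938).

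At the nearest neighbours of all no excess was detectable. Positions 1 bp apart are the cytosines of opposite strands, in the same CpG or in CpGs that touch, and they are read from separate strands. Only 17 members had such a spermatid-methylated neighbour, and the keeping line was at 50% or more at 2 of them and under 10% at 10. Its mean there was 17.7%, against 18.5% in the other lines, a mean over the lines of -2.16 ± 13.1 points (SD, n = 5), positive in 2 of 5 lines (exact sign-flip permutation test, p = 0.75). With 2 to 4 members per line this comparison is thin. Over all 147 pairs of spermatid-methylated cytosines 1 bp apart, the levels within a line had Pearson's r of 0.0409 (DKO replicate 3) to 0.286 (DKO replicate 1). WT replicate 1 was at 50% or more at both cytosines of 14 pairs and at 1 cytosine of 56. At 2 to 50 bp r was 0.335 to 0.414 over 26540 pairs, and at 51 to 150 bp 0.0705 to 0.135 over 10156. These correlations are across cytosines of 1 library, which are not independent replicates. How many DNA molecules stand behind a level such as 100% of 745 reads is not known from the number of reads.

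Even within 50 bp agreement was partial. Of 2093 spermatid-methylated neighbours at 2 to 50 bp, other members included, the keeping line was at 50% or more at 763 (36.5%), under 10% at 832 (39.8%) and between at 498. At 51 to 150 bp it was at 50% or more at 15.8%, close to the 17.0% that the lines' shares over all spermatid-methylated cytosines give when weighted by their members. Cytosines on the same reads have nearly the same depth in every library. Among the 837 neighbours within 50 bp whose depth differed from that of the member by less than 0.05 on the log2 scale, averaged over the 6 libraries, the keeping line was at 50% or more at 352 (42.1%) and under 10% at 351 (41.9%). In the next classes, with depths differing by 0.05 to 0.2, 0.2 to 0.5 and 0.5 to 1, it was at 50% or more at 50 of 104 (48.1%), 117 of 268 (43.7%) and 159 of 469 (33.9%). Where depths differed by more than 1 on that scale, it was at 85 of 415 (20.5%). The share, which includes other members, was thus 42.1% where depths matched best and lowest where they differed most. At neighbours outside the set, the keeping line's excess, with line-wide differences removed, was highest where depths matched best, at 17.2 points. In the following classes this excess was 11.6, 14.9, 13.4 and 9.17 points. It was positive in 5 of 5 lines in each class. Differences between the classes were not tested.

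The largest block lay within Fgg, which encodes the gamma chain of fibrinogen (chromosome 3, 83012848 to 83012869). Its 4 cytosines were at 53.6%, 50.8%, 94.9% and 50.8% in WT replicate 1, from 56 to 59 reads, at up to 3.40% in the other lines and at 100% in round spermatids. The next 2 measured cytosines, 6 and 9 bp further on and also at 100% in round spermatids, were at 0% of 59 reads in WT replicate 1. The first of them was at 14.4% in DKO replicate 1. The block thus ended between neighbouring CpGs covered by the same number of reads.

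A block within Dyrk1b, a protein kinase gene, showed the same sharp edge (chromosome 7, 28185815 to 28185846). Its 3 cytosines were at 100% of 271 reads in DKO replicate 3, at 0% in both WT lines and DKO replicate 2, and at up to 4.65% in DKO replicate 1. The cytosine 3 bp before it, at 100% in round spermatids, had no methylated read in any of the 5 lines. The one 15 bp before it was at 0% in DKO replicate 3, 21.9% in WT replicate 2 and 100% in DKO replicate 2.

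The 4 named blocks of DKO replicate 2 each held 3 cytosines. Within Ifnlr1, an interferon lambda receptor gene on chromosome 4 (135704098 to 135704123), the cytosines were at 91.1%, 71.6% and 71.6% in DKO replicate 2 and at 0% in the other lines. A cytosine 378 bp after that block was kept by WT replicate 1 instead, at 62.4% of 590 reads, with DKO replicate 2 at 0.490%. Within Pla2g4b, a phospholipase gene on chromosome 2 (120039080 to 120039107), DKO replicate 2 was at 55.2%, 56.8% and 99.2%, and the other lines at up to 5.38%. A block 154961 bp from Irak1bp1 on chromosome 9 (82674794 to 82674845) was at 100%, 100% and 97.9% in DKO replicate 2, while WT replicate 2 reached 9.41% at its last cytosine. The block within Ccdc40, a gene for assembly of motile cilia, was at 61.8% of 2288 pooled reads in DKO replicate 2 and 0% in the other lines. Rngtt, the mRNA capping enzyme gene, held a block of 3 at 64.9% of 1455 pooled reads in WT replicate 1.

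The pairs named next mostly stand at the upper end of the range, because blocks of equal size were ordered by the level of the keeping line. Over all 84 blocks of 2, the mean level of the keeping line had a median of 76.5% and was 90% or more in 23. WT replicate 1 was at 100% of 378 pooled reads at 2 cytosines within the zinc finger gene Zfp831, and at 100% of only 22 pooled reads at a pair 21976 bp from the homeobox gene Nkx1-1. In WT replicate 2 a pair 179784 bp from Arhgef26 was at 100% of 647 pooled reads and at 0% in the other lines. Pairs within Ifitm10 and Rgs9, a regulator of G protein signalling of the retina, were at 90.9% and 89.4% in WT replicate 2, and a pair 11536 bp from Olfr456 at 70.2%. DKO replicate 1 was at 52.4% of 996 pooled reads at 3 cytosines of the calcium pump gene Atp2b2. It was at 100% at pairs within Itsn2, an endocytosis gene, within Pax2, and 1185 bp from the kinetochore gene Ska2. DKO replicate 3 was at 100% at pairs within Fbxl19 and Mylip, which encode parts of ubiquitin ligases, and at 95.3% within Agap1.

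The single cytosines with the highest lower bound of the level were at or near 100% in their line. They lay 188903 bp from Dbpht2 in WT replicate 1 (100% of 745 reads), within the methyltransferase gene Smyd3 in WT replicate 2 (99.3% of 900 reads) and 69131 bp from Smim20 in DKO replicate 1 (100% of 484 reads). The others were 21267 bp from Clec4b1 in DKO replicate 2 (100% of 688 reads) and 76627 bp from Gpc1 in DKO replicate 3 (100% of 563 reads). At the site near Clec4b1, WT replicate 1 was at 7.44%.

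**Figure D5:**
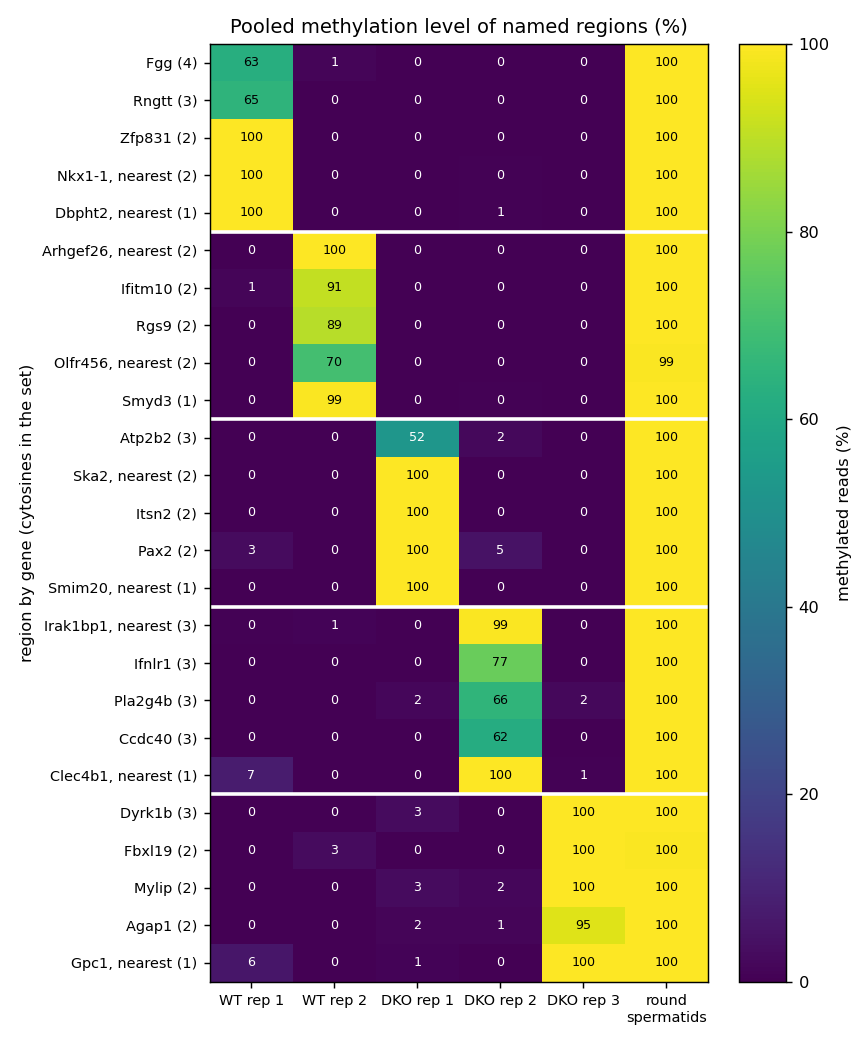
Rows are the 4 largest blocks and the leading single cytosine of each line, by the gene that holds them or is nearest, with the number of cytosines in parentheses, and columns are the 6 libraries. Numbers and colours give the level over summed reads (%). In each group of 5 rows one line is high, from 52.4% at Atp2b2 to 100%, and the other 4 stay below 8%.

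Genes seldom held more than 1 member, and those that did often held members of several lines. Members lay in 1111 named genes, of which 905 held 1 and 206 held 2 or more. Among the 206, 141 held members of at least 2 lines and 65 of 1 line. Over all spermatid-methylated cytosines 4.73% were members, and of distant pairs of members on a chromosome 25.1% were of 1 line. Beside these shares, the counts are not a result about the genes. Smyd3 and Cux2, a homeobox gene of neurons, held 5 each, the most of any gene, and were singled out after their values were seen. In Smyd3 the 5 were among 20 spermatid-methylated cytosines and belonged to WT replicate 2 (2), DKO replicate 1 (2) and DKO replicate 3 (1). In Cux2 the 5 of 55 belonged to WT replicate 2 (2) and DKO replicate 2 (3). Genes differ in how many cytosines were measured, so these counts do not rank genes.

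Genes of the methylation machinery held 5 members among 43 spermatid-methylated cytosines (11.6%, against 4.73% of all), in 3 of 9 genes with such cytosines. With so few cytosines this share is not a result about the list, and it was not tested. Uhrf1 held a pair that differed in line over 16 bp. On chromosome 17 at 56319195 DKO replicate 3 was at 100% of 167 reads and the other lines at up to 2.53%, and at 56319211 WT replicate 1 was at 54.8% of 250 reads while DKO replicate 3 was at 0%. Dnmt3a, a de novo methyltransferase gene, held 1 member of DKO replicate 1 (79.9% of 318 reads) and 1 of DKO replicate 3 (99.7% of 327 reads). Dnmt1 held 1 of DKO replicate 2 (69.6% of 148 reads). These lie within genes or 1 kb of their ends, and say nothing of expression.

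Among 20 developmental regulators, 3 had spermatid-methylated cytosines, and 4 of their 21 were members (19%). All 4 lay in Pax2, a kidney and eye factor on chromosome 19. At 44783681 and 44785636 WT replicate 1 was at 52.0% and 77.3%, and at 44818536 and 44818543 DKO replicate 1 was at 100% of 94 reads. Of 21 imprinted genes, 6 had 7 such cytosines and 1 was a member, in Mest at 30742864 on chromosome 6, where WT replicate 1 was at 96.4% of 28 reads and the other lines at 0%. No member (0) was found among 15 cytosines of trophoblast genes, 15 of pluripotency genes, 4 of germ cell genes, 12 of spermatid genes, 20 of feeder fibroblast genes and 6 of testis somatic genes. At a share of 4.73%, lists of this size would hold few members, so these counts are not a result about the lists.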

How the data were processed

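RRBS libraries of 2 WT lines, 3 DKO lines and 1 round spermatid sample were used. Per the labels' protocols, MspI fragments received methylated adapters, were selected by size on a gel, treated with bisulfite and copied by PCR. Bismark 0.12.2 and mm10 come from the submitters' processing notes. Trimming, duplicate removal and filters: not given in the sources used here. Per the file headers, the authors deposited counts of methylated and unmethylated reads for each cytosine and the methylation level as a fraction, which matched the ratio of the counts within 1e-09. Reads carry no molecular identifiers, so several can come from 1 molecule.

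Levels were recomputed from the counts in Python 3.11.15 with pandas 2.3.3, NumPy 2.4.6 and SciPy 1.17.1, and the scripts were tested on simulated data. The members, the gene lists and the tests were chosen with earlier results of these data known. Lines were compared by exact permutation over splits or by sign-flips over the 5 lines, and other values are descriptions. P-values were not adjusted, since none of these tests could reach 0.05. Named regions are, for each line, its 4 blocks with the most members (ties by the higher mean level of the keeping line, so named pairs have high levels) and its single member with the highest Wilson lower bound, and the 5 largest blocks of all, with the gene that holds them or the nearest named one. Genes come from RefSeq (GRCm38.p6, the assembly behind mm10) as spans, so exons and introns were not assigned. The lists cover imprinted genes, methylation machinery, developmental regulators and genes of trophoblast, pluripotent, germ, spermatid, feeder and testis somatic cells. Alternatives varied the coverage minimum, the 3 level limits, the neighbour distance and the lines included. The splits of neighbours at 50 bp, the removal of line-wide differences, the classes of depth and the correlation of neighbouring levels were added after seeing the data.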

Additional observations from a re-analysis of the deposited data

Results flagged for a closer look

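The rule leaves out the X chromosome, and 34 of its 723 spermatid-methylated cytosines with enough reads (4.70%, Wilson 95% interval 3.38% to 6.50%) were kept by one line only under the same limits. The report does not use these positions elsewhere, and they were flagged only because their count was above 3. WT replicate 1 held 14, DKO replicate 2 held 9, DKO replicate 1 held 7, DKO replicate 3 held 4 and WT replicate 2 held 0. The share lay close to the 4.73% of chromosomes 1 to 19, so the count is not a result about the X chromosome. No cause was tested.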

How the results depend on the processing

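The number of cytosines kept by one line only changed with the limits of the rule. It was 2142, 993 with at least 50 reads in every library, 916 with the keeping line at 75% or more and 3479 with the other lines under 20%. With a lowest depth of at least 100 or 200 reads the share was 2.94% or 2.22%. Leaving out each line in turn gave 3031 to 3574, where the rule asks less of the remaining 4 lines: 3574 without DKO replicate 2 and 3313 without WT replicate 1. Every value given below for leaving out a line uses members chosen anew in this way, so it describes a different set. The share of member pairs within 500 bp that belong to 1 line was 67.1%, 56.3% with the keeping line at 40% or more, 78.0% at 75% or more, 0% of 5 pairs beyond 300 and up to 500 bp, and 64.0% to 70.1% without each line. The difference between DKO and WT lines kept its sign in 14 of 15 alternatives, with -1.29 to 1.06 points on leaving out each line, and turned without WT replicate 1 (1.06 points). Blocking on the line names OG3 and AGH-2 (replicate block), which leaves out DKO replicate 1, gave -0.159 points (exact sign-flip permutation p = 1). With so few pairs this test cannot give a small p. The excess of the keeping line at neighbours outside the set was 8.45 to 10.7 points without each line, and -0.543 points beyond 300 bp. At neighbours within 500 bp too thinly read for the rule it was 13.7 points, 10.03 to 12.2 without each line (positive in 3 of 4 lines without DKO replicate 3, exact permutation p = 0.25, and in 4 of 4 otherwise), and turned to -3.00 points beyond 300 bp and -0.240 at 51 to 500 bp, the latter chosen after seeing the data. The depth difference was 0.17 on the log2 scale with all lines. It was 0.18 to 0.27 without each line, highest without WT replicate 2. Causes were not tested. Strand and context outside promoter windows were not assigned, and 1 library per line bounds what can be said of any line.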
